A study of Mus musculus with 48 samples.

Results

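Livers of rapamycin-fed Ercc1 Δ/- mice were compared with livers of untreated wild-type mice across all genes on the array, as a measure of how far treated mutant liver lay from normal liver. The comparison used 9 of the 24 arrays of the series, picked by their labels alone. These were the 4 arrays of progeroid mice on rapamycin (Rapa 14 ppm, animals 535 to 538) and the 5 arrays of wild-type mice on control diet (WT-Control, animals 401 to 405). The 5 arrays of Ercc1 Δ/- mice on control diet (Control, animals 321 to 327) were set beside them. Mice on 30% dietary restriction entered the shared estimate of the spread. They also entered the means over all arrays that marked dim probe sets and picked 1 probe set per gene, and their distances are shown for scale. Every array held RNA from the liver of 1 mouse of 11 weeks of age. All mice were F1 hybrids of C57BL6J and FVB, kept on AIN93G pellets with free access to food in the 3 groups described. The mutants carried 1 Δ and 1 null allele of Ercc1 in every cell of the body, and WT-Control mice carried neither. The study used wild-type littermates as controls in general. Whether animals 401 to 405 were littermates of animals 535 to 538 is not stated. The rapamycin diet held 14 ppm of microencapsulated rapamycin (eRapa). The labels give its start as either 4 or 8 weeks of age, and which start applied to the mice on the arrays is not stated. Arrays of rapamycin-fed wild-type mice were not analysed here, so genotype and drug differ together in Rapa 14 ppm vs WT-Control and cannot be told apart within it.

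ERCC1 is a subunit of the nuclease that cuts out damaged DNA in nucleotide excision repair and that unhooks DNA interstrand crosslinks. Without it, lesions that block RNA polymerase persist in genes, and a long gene offers more places for such a block than a short one, which is the basis of what is called transcription stress. Rapamycin binds the protein encoded by Fkbp1a, and the pair inhibits mTOR complex 1, a kinase complex that promotes ribosome production, protein synthesis and lipid synthesis and restrains autophagy. The liver is a main site of detoxification, of lipid and glucose metabolism and of sex-specific gene expression driven by growth hormone.

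The array values were log2 signals of 45141 probe sets, of which 28899 matched 1 gene (17076 genes in all), 550 matched several and 15692 are not named here. Pairs of arrays correlated at 0.993 to 0.995 within Rapa 14 ppm, at 0.992 to 0.995 within WT-Control and at 0.987 to 0.991 between them. The files hold no call of presence, so the median of the mean values of all probe sets, 4.19, serves as a mark for dim probe sets, and a difference from a group near or below it is only a rough size. Hepatocyte markers (14 genes, such as albumin) had a mean level of 12.30 to 12.37 in Rapa 14 ppm and of 12.33 to 12.46 in WT-Control. The labels give no sex. In all 24 mice the Y-linked gene Eif2s3y was at 9.65 to 10.24 and Xist, the RNA of the inactive X chromosome, at 3.68 to 4.35. The Y-linked genes Kdm5d (5.94 to 7.51) and Uty (6.38 to 7.34) were also above the mark for dim probe sets in all 24, the pattern of male mice. Among the 24 arrays described here, the titles of all but those of Rapa 14 ppm carry a mark of re-analysis. In a second deposited table of the same mice, the Rapa 14 ppm titles carry that mark and the others that of a second re-analysis. The labels do not say what the marks stand for, and this cannot be told apart from the rapamycin group. The spike-in controls (45 probe sets) averaged 7.50 to 7.58 in Rapa 14 ppm and 7.64 to 7.74 in WT-Control, and the 3' less 5' signal of Gapdh was 0.89 ± 0.28 (SD, n = 4) against 0.64 ± 0.07 (SD, n = 5). The part of these differences in the results was not tested.

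The mutated gene itself was read by 4 probe sets on chromosome 7. In the brighter of the 2 that fell, Ercc1 was at 5.05, 5.01, 5.12 and 5.28 in the Rapa 14 ppm mice and at 6.68, 6.85, 6.57, 6.63 and 6.65 in the WT-Control mice. The groups did not overlap, and the difference was -1.56 (SE 0.10, adjusted p = 1.1e-09). The other probe set that fell differed by -1.68 and was dim in the mutants, at 3.17 to 3.23. The remaining 2 Ercc1 probe sets differed by 0.06 and -0.06 and overlapped between the groups. Which part of the transcript each reads is not given in the sources used here.

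A probe set was called a differentially expressed gene (DEG) where the groups differed at least 1.5-fold at a false discovery rate (FDR) under 0.05. In Rapa 14 ppm, 1037 probe sets were higher than in WT-Control (2.30% of those tested) and 547 were lower (1.21%). They stood for 609 and 341 named genes. With 1 probe set per gene, 513 of 17076 genes were higher (3.0%) and 276 lower (1.62%), and these are the shares against which each group of genes below is read. They include dim genes, which gave few calls. Of the 1037 higher DEGs 964, and of the 547 lower DEGs 510, had a mean over all arrays above the mark for dim probe sets. For a list with few dim members these shares are therefore a low reference. The values of the 4 and 5 mice did not overlap in 850 of the higher and 478 of the lower DEGs, and in 12.2% of all probe sets. Most changes were small. The median DEG was 1.75-fold higher or 1.72-fold lower, 297 higher and 165 lower DEGs reached 2-fold, and 8 and 5 reached 8-fold. The median of all probe sets was -0.0244 on the log2 scale. P-values here measure the spread between mice.

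**Figure D1:**
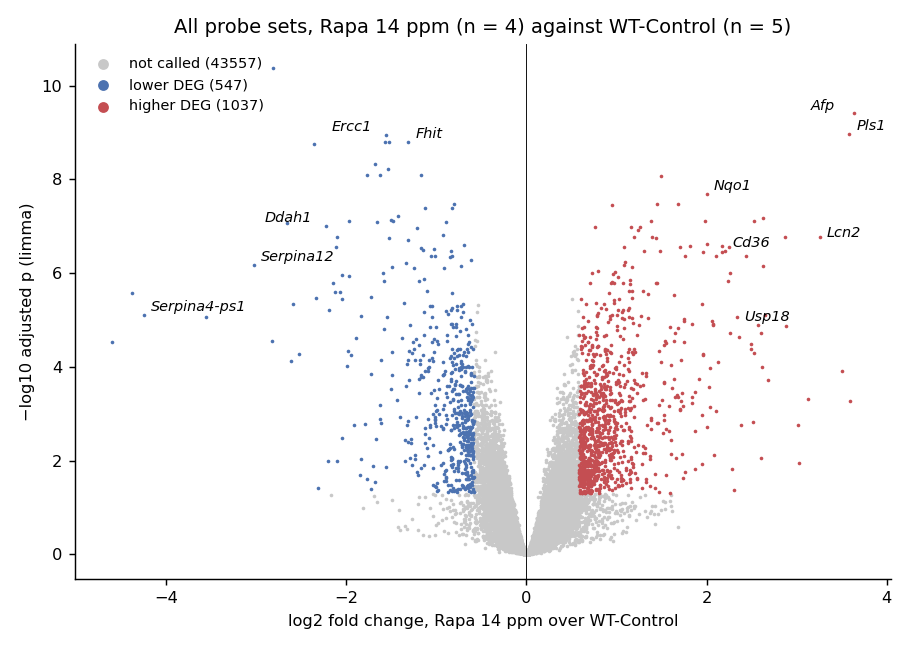
Each point is 1 of 45141 probe sets, with the log2 fold change of Rapa 14 ppm (n = 4) over WT-Control (n = 5) on the horizontal axis and the -log10 of the adjusted p on the vertical axis. The 1037 higher DEGs are red and the 547 lower DEGs blue, and Afp, Pls1 and Lcn2 lie farthest to the right among the labelled genes, Serpina4-ps1 farthest to the left.

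The increase with the smallest adjusted p among named genes was in Afp, alpha-fetoprotein, the main serum protein of the fetal liver, which hepatocytes switch off after birth. It was at 8.58, 7.15, 7.77 and 7.87 in Rapa 14 ppm and at 4.11, 4.13, 4.15, 4.26 and 4.37 in WT-Control. All 4 mutants lay far above every wild type, in which the gene was near the mark for dim probe sets. The fold change was 12.5 in this probe set (log2 3.64, SE 0.22, adjusted p = 3.9e-10). Of 5 Afp probe sets 3 were higher DEGs, and the lowest difference was -0.04. Pls1, an actin-bundling protein of brush borders, was at 8.24 to 8.66 against 4.14 to 5.52 (log2 3.58, SE 0.23, adjusted p = 1.1e-09). Lcn2, lipocalin 2, an acute phase protein that binds bacterial iron carriers, was at 9.43, 7.82, 8.65 and 8.43 against 4.75 to 5.75 (log2 3.26, SE 0.30). Sult1e1, the oestrogen sulfotransferase, was at 8.74, 7.12, 8.35 and 7.42 against 4.23 to 4.53. The Rapa 14 ppm mice were far apart in this gene, and in Afp, Lcn2 and Sult1e1 alike animal 535 was highest and animal 536 lowest.

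The other large increases were in genes of several functions. Socs2, which dampens growth hormone signalling, was 8.18-fold higher in 1 probe set, but its WT-Control values there ran from 4.24 to 7.32 (adjusted p = 0.011). Of 4 Socs2 probe sets 2 were higher DEGs, and the lowest difference was -0.00. Slc16a5, of the monocarboxylate transporter family, was at 7.10 to 7.37 against 3.65 to 4.89. Hsd3b4, of the steroid dehydrogenase family, was at 8.27, 5.84, 7.61 and 7.96 against 4.28 to 4.72. Gpcpd1, which splits glycerophosphocholine, was 6.43-fold higher, from a dim level of 3.47 to 4.27 in WT-Control. Olig1, a transcription factor best known from oligodendrocytes, was at 8.15 to 8.77 against 5.51 to 6.59. Ly6d and the transporter gene Slc22a27 were 6.10-fold and 5.72-fold higher. In a second deposited table, with 1 probe set per gene, Slc22a27 lost its call (log2 0.88, adjusted p = 0.0745). None of these overlapped between the groups, as the rule for naming them required.

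Serpina4-ps1, a serpin pseudogene whose RNA is known to be higher in male than in female mouse liver, had the largest decrease. In its brighter probe set it was at 8.00, 6.59, 6.41 and 6.97 in Rapa 14 ppm and at 12.45, 10.88, 12.14, 10.57 and 10.18 in WT-Control. The highest mutant lay below the lowest wild type by more than 2 log2 units, and the difference was -4.25 (SE 0.52, adjusted p = 7.8e-06). Serpina12, which encodes the adipokine vaspin, was at 8.42, 9.03, 8.46 and 9.67 against 11.61 to 12.13, a decrease of 8.15-fold (log2 -3.03, SE 0.31). The sulfotransferase gene Sult5a1 was 6.30-fold lower, at 5.48 to 6.03 against 7.89 to 8.99. Ddah1, which degrades the nitric oxide synthase inhibitor asymmetric dimethylarginine, was at 8.00, 8.45, 8.50 and 8.09 against 10.21 to 10.68 (log2 -2.23, SE 0.20, adjusted p = 9.7e-08). Ddah1 had 5 probe sets, whose log2 differences ran from -2.23 to -0.82.

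Further large decreases were in signalling genes and metabolic enzymes. Gna14, a G protein alpha subunit, was 5.07-fold lower, and Tiam2, an exchange factor for the small GTPase Rac, 4.35-fold lower. The receptor gene Adgrv1 was at 5.53 to 6.16 against 7.42 to 8.64, while a second probe set of it differed by -0.01. Hes6, of the Hes family of transcription factors, and the dehydrogenase gene Sdr9c7 were 4.15-fold and 4.34-fold lower. Dio1, the deiodinase that activates thyroid hormone in liver, was at 9.21, 8.92, 8.53 and 9.33 against 10.82 to 11.20 (log2 -1.98, SE 0.28, adjusted p = 4.6e-05). The mutants were spread over more than 1 log2 unit in Gna14 and Tiam2 and over less in Adgrv1, Hes6, Sdr9c7 and Dio1, and in none of them did the groups overlap.

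**Figure D2:**
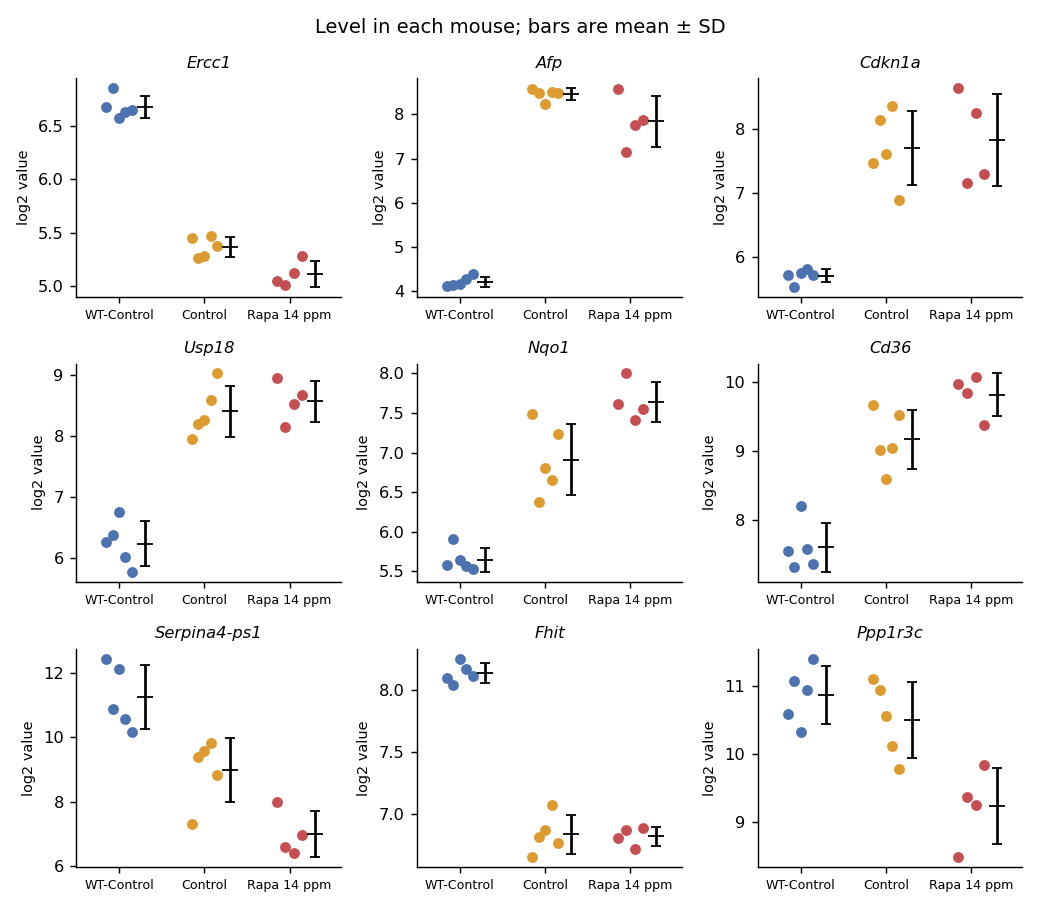
Each point is the log2 value of 1 mouse in WT-Control (n = 5), Rapa 14 ppm (n = 4) and Control (n = 5), with bars for the mean ± SD, for 9 genes read from 1 probe set each on axes that do not start at 0. In Afp the Rapa 14 ppm mice lie at 7.15 to 8.58 and the WT-Control mice at 4.11 to 4.37, and in Fhit at 6.71 to 6.88 and 8.04 to 8.25.

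Of 30 measured genes activated by the p53 protein, which responds to DNA damage, 12 were higher DEGs and 0 lower, and the median log2 difference was 0.40 against -0.0298 over all genes. Cdkn1a, the p21 inhibitor of the cell cycle, was at 8.64, 7.16, 8.25 and 7.30 in Rapa 14 ppm and at 5.54 to 5.81 in WT-Control. All mutants exceeded all wild types, and the mutants fell into values near 7.2 and above 8.2 (log2 2.12, SE 0.31, adjusted p = 7.9e-05). Phlda3, an inhibitor of Akt, was at 6.03 to 6.74 against 3.85 to 4.52 (log2 2.26, SE 0.30). Ccng1, cyclin G1, was at 9.91 to 10.10 against 8.75 to 9.03, and Polk, a polymerase that copies past DNA lesions, 1.82-fold higher, though under the fold threshold in the second table (log2 0.56). Eda2r, a receptor of the tumour necrosis factor family, rose from a dim level in WT-Control. In the 4 mice the median over the list was 0.42, 0.44, 0.51 and 0.51 above the WT-Control mean, so the list moved alike in all of them.

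Repair genes and genes of the cell cycle behaved differently from each other. Of 29 measured genes of nucleotide excision and crosslink repair, 1 was lower, Ercc1 itself, and 0 were higher (median -0.03). Of 38 genes of the cell cycle and DNA replication, 5 were higher and 0 lower, with a median of 0.22 and 14 dim members. Mcm6, of the replicative helicase, was at 6.51 to 6.69 against 5.11 to 5.88 (log2 1.20, SE 0.17), and Mcm4 was 1.59-fold higher. Rbl1, a relative of the retinoblastoma protein, was at 5.01 to 5.47 against 4.22 to 4.41, and in the second table its difference of 0.42 was under the fold threshold. Ccne2, cyclin E2, was 2.18-fold higher, from a dim level. Cdk1, the mitotic kinase, chosen here after its values were seen, was at 5.24 to 6.50 against 4.77 to 5.39 and overlapped, and its call ended on leaving out any of 4 mice (adjusted p 0.0552 to 0.101).

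Interferon-stimulated genes are switched on when viral or misplaced nucleic acid is sensed. Many carry in their promoter the interferon-stimulated response element, searched here as GAAA, any 2 bases and GAAA again, on either strand, in the 250 bases before and 50 bases after the gene start. A window was at hand for 20 of the 27 measured genes, and 10 of them held a match, compared with 1079 of 27025 genes in all (3.99%). Of the 5 higher DEGs with a window, 3 held one. The following stretches from RefSeq, build GRCm38.p6, show matches in capitals for a pair of genes that were higher, Ifit1 and Gbp3, and for a pair that did not pass the test, Rsad2 and Oas3, each chosen after its values were seen. Each is written on the strand of its gene. In Ifit1, Gbp3 and Rsad2 the element stands in reverse orientation, and in Gbp3 a pair of matches overlaps. A match is a likeness of letters and does not show that a factor binds there.
Ifit1, chr19:34640765-34640844, plus strand: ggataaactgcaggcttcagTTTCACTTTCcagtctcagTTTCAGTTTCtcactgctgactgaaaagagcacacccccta
Gbp3, chr3:142559979-142560043, plus strand: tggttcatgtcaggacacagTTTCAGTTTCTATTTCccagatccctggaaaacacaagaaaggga
Rsad2, chr12:26456513-26456592, minus strand: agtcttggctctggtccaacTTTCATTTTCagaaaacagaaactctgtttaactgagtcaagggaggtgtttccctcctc
Oas3, chr5:120777675-120777754, minus strand: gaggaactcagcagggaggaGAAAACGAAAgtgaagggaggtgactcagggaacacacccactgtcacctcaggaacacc

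Of the 27 interferon-stimulated genes, 7 were higher DEGs, 0 were lower and the median was 0.43. Usp18, which removes the ubiquitin-like protein ISG15 and restrains the interferon receptor, was at 8.95, 8.14, 8.52 and 8.66 in Rapa 14 ppm and at 6.25, 6.38, 6.75, 6.01 and 5.77 in WT-Control. The groups were more than 1 log2 unit apart at their nearest mice, and the increase was 5.04-fold (log2 2.33, SE 0.29, adjusted p = 8.7e-06). Xaf1, a promoter of apoptosis, was 2.34-fold higher in 1 probe set, while its other probe set differed by 0.10 and its call ended in the second table (log2 0.56). Irf7, the transcription factor that amplifies the response, was 1.90-fold higher and Ifih1, a sensor of double-stranded RNA, 1.55-fold. Gbp3, a GTPase with the overlapping matches above, was at 7.33 to 7.98 against 6.17 to 6.77. Ifit1, which binds foreign RNA and carries 2 matches, was at 6.99 to 7.53 against 5.89 to 7.00 and overlapped, and its call ended on leaving out any of 7 mice (adjusted p 0.056 to 0.0973). Rsad2, an antiviral enzyme, was at 7.39 to 8.31 against 6.67 to 7.85 (log2 0.59, adjusted p = 0.0875). Oas3, which makes an activator of RNase L, was dim in all 9 mice (log2 -0.23, adjusted p = 0.0524).

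Sensors, secreted factors and matrix genes followed with fewer calls. Of 13 sensors of DNA and RNA, Zbp1 was higher (5.81 to 6.38 against 4.55 to 5.67) and so was Tlr3, and the median of the list was 0.02. The call of Tlr3 ended, by its size, without animal 538 (log2 0.58) or 401 (log2 0.57). Of 19 genes of senescent cells and the factors they secrete, 3 were higher, namely the cell cycle inhibitor gene Cdkn1a, the elastase gene Mmp12 (3.58-fold) and the monocyte attractant gene Ccl2 (1.75-fold), which fell under the fold threshold in the second table (log2 0.51). Of 21 genes of the extracellular matrix and of activated stellate cells, which lay down scar tissue in the liver, 5 were higher and 0 lower, with a median of 0.38, or 0.20 with the mean of all probe sets of each gene. Postn, periostin, was at 8.28, 7.79, 8.29 and 8.00 against 6.46 to 6.90 (log2 1.39, SE 0.13, adjusted p = 1.7e-07). The proteoglycan gene Lum was 2.25-fold higher, the gelatinase gene Mmp2 1.89-fold and the basement membrane collagen gene Col4a1 1.63-fold. Col6a3, chosen after its values were seen, lost its call without animal 535 (log2 0.76, adjusted p = 0.0549).

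Markers of cell types moved beside these groups, and in bulk liver more cells of a type and more RNA per cell cannot be told apart. Of 18 macrophage and Kupffer cell markers, 2 were higher (Mpeg1, at 9.98 to 10.57 against 9.36 to 9.73, and Marco) and 0 lower, and their mean level was 8.11 to 8.61 in Rapa 14 ppm and 7.80 to 8.23 in WT-Control. Marco lost its call on leaving out any of 6 mice (adjusted p 0.0692 to 0.107). Of 13 stellate cell and fibroblast markers, 0 passed, with a mean level of 7.24 to 7.38 against 6.96 to 7.25. Of 13 markers of sinusoidal endothelial cells, the scavenger receptor gene Stab2 was lower (log2 -0.68), 11 lay below 0, and the mean level was 7.64 to 7.81 against 7.87 to 7.97, without overlap. The neutrophil genes S100a8 and S100a9 were 1.74-fold and 1.73-fold higher, while the other neutrophil markers did not pass (9 measured, 6 of them dim). Of 15 lymphocyte markers 0 passed. The part of these cell types in the changes above was not tested.

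Genes of the fetal and progenitor liver had the highest share of DEGs among the 45 lists, with 6 dim members. This rank is a description only, since the lists were chosen with earlier results of these data known. Of 15 measured, 7 were higher and 0 lower, with a median of 0.42, or 0.24 with the mean of all probe sets of each gene and 0.27 in the second table. Besides Afp and Ly6d, Meg3, a long RNA from the imprinted region of chromosome 12, was at 7.39, 7.05, 7.70 and 8.54 against 5.07 to 5.25 (log2 2.49, SE 0.34). It had 10 probe sets, and the lowest differed by -0.09. Cd24a, a surface protein of progenitor cells, was at 6.68 to 7.22 against 5.41 to 5.92. Tspan8, which is also among the cholangiocyte markers, was 2.82-fold higher from a dim level in 1 probe set, but the lowest of its other probe sets differed by 0.02 and the second table gave 0.31, without a call. Of 22 acute phase proteins, Lcn2 and Orm2 were higher, Saa4 was lower, and the median was 0.19. Orm2 and Saa4 lost their calls on leaving out any of 4 mice (adjusted p 0.0531 to 0.132) and of 7 mice (adjusted p 0.0524 to 0.109). Of 29 genes of complement and coagulation 0 passed.

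Of 31 measured targets of NRF2, which protect against oxidants and reactive chemicals, 9 were higher and 1 was lower, with a median of 0.27. Nqo1, the quinone reductase that often serves as the readout of NRF2, was at 7.62, 8.00, 7.41 and 7.55 in Rapa 14 ppm and at 5.58, 5.91, 5.64, 5.57 and 5.53 in WT-Control. The 4.00-fold increase was far beyond the spread of either group (log2 2.00, SE 0.16, adjusted p = 2.0e-08). The glutathione transferase gene Gsta2 was at 10.67, 11.10, 11.00 and 10.85 against 8.31 to 9.07, and Gstm3 was 3.10-fold higher. Gstm6, chosen after its values were seen, was the 1 lower member and lost its call on leaving out any of 4 mice (adjusted p 0.05 to 0.0681). Of 16 other antioxidant enzymes, only Msra, which repairs oxidised methionine, passed, and it was lower (log2 -0.83, SE 0.07).

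Ugdh, which makes the sugar donor of glucuronidation, was at 11.14 to 11.52 against 10.30 to 10.90 (log2 0.88, SE 0.12). It is shown because its promoter holds a pair of matches to the antioxidant response element that NRF2 binds, searched as TGACNNNGC on either strand and printed in capitals (RefSeq, GRCm38.p6). Of 26 list members with a window, 8 (30.8%) held a match, compared with 3781 of 27025 genes (14.0%), and 2 of the 10 DEGs with a window did.
Ugdh, chr5:65435908-65435994, minus strand: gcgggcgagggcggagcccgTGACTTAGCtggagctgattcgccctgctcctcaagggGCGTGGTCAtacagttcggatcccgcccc

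Enzymes of drug metabolism moved in both directions. Of 37 phase I enzymes, which oxidise foreign compounds, 5 were higher and 5 lower, with a median of -0.07. Fmo1 was at 11.68 to 11.82 against 10.84 to 11.16 (log2 0.77, SE 0.07), Cyp3a13 was 1.81-fold higher and Fmo2 3.26-fold higher. Cyp2c29 was at 10.93, 12.24, 11.76 and 11.61 against 13.01 to 13.31, a decrease of 2.93-fold (adjusted p = 8.8e-06). Cyp2b10, the usual target of the receptor CAR, was at 3.12, 3.49, 3.42 and 3.27 in Rapa 14 ppm, dim in all 4 mice, and at 5.32, 6.27, 5.21, 7.65 and 3.75 in WT-Control. Its wild types were spread over almost 4 log2 units, and its call ended on leaving out any of 7 mice (adjusted p 0.0506 to 0.106). Of 20 conjugating enzymes, 4 were higher, with Sult1e1 first, and 3 lower, with Sult5a1 first and the glycosyltransferase gene Ugt3a1 2.05-fold lower. Many of these genes have close copies in the genome, and probes may read more than 1 member of such a family.

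Genes that are higher in male than in female mouse liver, a difference set by the pulses of growth hormone, were lower in part. Of 20 measured male-biased genes, 5 were lower and 0 higher, with a median of -0.24, and 16 lay below 0. The mice differed in the size of this shift, with list medians of -0.13, -0.60, -0.32 and -0.10. Besides Serpina4-ps1 and Serpina12, Elovl3, a fatty acid elongase, was at 10.34, 8.74, 9.80 and 10.15 against 11.29 to 12.18 (log2 -1.92, SE 0.38). Cyp2u1 was 2.13-fold lower. Of 19 female-biased genes, 3 were higher (Sult1e1, Fmo2 and Rtn4) and 0 lower, with a median of -0.07. Of 20 genes of the growth hormone and IGF1 axis, Socs2 and Igfbp1 were higher and the median was -0.04. Igfbp1, which binds IGF1 and rises in fasting, was at 12.67, 12.25, 12.26 and 11.57 against 10.23 to 11.43 (log2 1.37, SE 0.33, adjusted p = 0.00788). Of 10 genes that respond to thyroid hormone, Dio1 and Me1 were lower, with a median of -0.27, and Me1 lost its call on leaving out any of 6 mice (adjusted p 0.0556 to 0.112).

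Of 32 genes of fatty acid and triglyceride synthesis and uptake, 4 were higher and 4 lower, 24 lay below 0, and the median was -0.34. The higher members were Cd36, Fabp4, Mogat1 and Pparg, and the lower ones Acacb, Plin5, Scd1 and Me1. Cd36, the fatty acid transporter, was at 9.97, 9.83, 10.07 and 9.37 in Rapa 14 ppm and at 7.55, 7.32, 8.20, 7.57 and 7.36 in WT-Control. The 4.62-fold increase left more than 1 log2 unit between the nearest mice (log2 2.21, SE 0.22, adjusted p = 3.4e-07). Fabp4, the fatty acid binding protein of adipocytes and macrophages, was 1.67-fold higher, and Mogat1, a monoacylglycerol acyltransferase, was at 5.20 to 6.75 against 3.96 to 4.75. Pparg, the transcription factor of fat storage, was at 6.71, 6.32, 6.09 and 6.06 against 4.84, 4.63, 6.02, 4.91 and 4.91 (log2 1.23, SE 0.21), and the nearest wild type, animal 403, lay just below the mutants.

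Acacb, which makes malonyl-CoA at the mitochondrion, was at 5.62, 6.58, 6.50 and 5.47 against 7.52 to 9.22 (log2 -2.10, SE 0.52, adjusted p = 0.0101), and its second probe set differed by -0.04. Plin5, which coats lipid droplets and was chosen after its values were seen, was 1.72-fold lower and lost its call without animal 536 (adjusted p = 0.0549) or 538 (adjusted p = 0.0619). Scd1, the stearoyl-CoA desaturase, also chosen afterwards, was 1.69-fold lower, with animal 538 at 12.09 and the other mutants at 13.15 to 13.40. Its call ended on leaving out any of 7 mice (adjusted p 0.052 to 0.171). Of 29 genes of fatty acid oxidation, 4 were lower and 1 was higher, with a median of 0.06. The peroxisomal thiolase gene Acaa1b was at 12.26 to 12.69 against 13.10 to 13.27. Acaa1a fell by 0.62, but its 4 probe sets ran from -0.89 to 0.18, and without animal 536 its difference was -0.54 and under the fold threshold. Acot2 was 2.36-fold lower in 1 probe set and differed by -0.01 in the other, and in the second table its difference was 0.05, without a call.

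Cholesterol and bile acid genes showed few calls. Of 26 genes of cholesterol synthesis and transport, Sqle and Abcg1 were higher, with a median of 0.08. Sqle, squalene epoxidase, was at 8.64 to 9.64 against 6.42, 4.89, 8.69, 5.56 and 8.93, so that 2 wild types lay within the range of the mutants, and its call ended on leaving out any of 7 mice (adjusted p 0.0584 to 0.114). Abcg1, which exports cholesterol, lost its call on leaving out any of 4 mice (log2 0.54 to 0.57). Of 25 bile acid genes, 3 were higher and 1 was lower. Akr1d1, which reduces bile acid intermediates, was at 11.00, 11.28, 11.18 and 11.05 against 10.34 to 10.65 (log2 0.66, SE 0.08, adjusted p = 4.6e-06). Cyp7a1, the rate-limiting enzyme, was at 9.85 to 10.63 against 10.43, 7.87, 8.51, 7.56 and 7.72. WT-Control animal 401 lay among the mutants, and the call ended without animal 538 (adjusted p = 0.0515) or 404 (adjusted p = 0.0505). Abcb11, the bile salt export pump, was 1.51-fold lower and fell under the fold threshold on leaving out any of 5 mice (log2 -0.52 to -0.58).

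Of 24 genes of gluconeogenesis and glycogen, 2 were higher and 3 lower, with a median of -0.04. The subunits that bring protein phosphatase 1 to glycogen moved in opposite directions. Ppp1r3c was at 8.48, 9.36, 9.25 and 9.84 in Rapa 14 ppm and at 10.58, 11.07, 10.32, 10.94 and 11.40 in WT-Control, a decrease of 3.10-fold (adjusted p = 0.0013). Ppp1r3b was at 8.65 to 9.77 against 10.28 to 11.14, a decrease of 3.08-fold. Ppp1r3g, which is known to follow feeding and fasting, was at 7.13, 9.40, 9.00 and 7.97 against 6.16, 7.17, 5.67, 6.63 and 7.55 and overlapped (adjusted p = 0.0229). Its call ended on leaving out any of 4 mice (adjusted p 0.0526 to 0.103). Gyg, the glycogenin on which glycogen is started, was 1.71-fold higher. The time of day and feeding state at which the livers were taken are not given in the sources used here, and their part was not tested. Of 21 clock genes, 1 was lower, Nfil3, at 6.81 to 6.91 in Rapa 14 ppm and at 7.28, 8.01, 8.33, 8.35 and 9.05 in WT-Control.

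Few genes of the drug's own pathway passed the test. Of 37 genes of mTOR, insulin and AMPK signalling, 1 was lower and 0 higher, with a median of -0.07. The 1 was Rptor, raptor, the subunit that binds the substrates of mTOR complex 1, at 6.26, 6.32, 6.50 and 6.53 in Rapa 14 ppm and at 6.92 to 7.25 in WT-Control (log2 -0.64, SE 0.08, adjusted p = 2.1e-05). Its second probe set differed by -0.21, and in the second table it fell under the fold threshold (log2 -0.40). Mtor was at 7.94 to 8.34 against 7.93 to 8.49, Rheb, the activator of the complex, at 10.57 to 10.65 against 10.45 to 10.71, and Tsc1, its inhibitor, at 6.71 to 7.03 against 6.95 to 7.32. All overlapped. Fkbp1a, the protein that rapamycin binds, was 1.30-fold higher with an FDR under the threshold (adjusted p = 0.00244) but below the fold threshold. In Control, without the drug, the log2 difference from WT-Control was 0.37 for Fkbp1a and -0.58 for Rptor. Neither gene passed the limma test of Rapa 14 ppm vs Control. Rps6, the ribosomal protein whose phosphorylation reports the activity of the pathway, had a difference of 0.00 in RNA (SE 0.06), and the arrays do not measure phosphorylation.

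The lists of ribosomal, mitochondrial, autophagy and stress genes held few DEGs and had medians close to 0. Genes of lipid synthesis, which mTOR complex 1 promotes, are described above. Of 46 cytosolic ribosomal proteins 0 passed both thresholds, and their log2 differences lay between -0.27 and 0.34 with a median of 0.01. Of 43 subunits of oxidative phosphorylation 0 passed, 32 lay below 0 and the median was -0.07. Atp5o, for example, was 1.29-fold lower with an FDR under the threshold. Of 34 genes of autophagy and the lysosome, Hexa, a lysosomal hexosaminidase, was higher (log2 0.67) and Atg7 lower (log2 -0.62), with a median of -0.05. Atg7 lost its call by size without animal 537 (log2 -0.58) or 403 (log2 -0.57), and in the second table (log2 -0.46). The 4 probe sets of Atg7 ran from -0.62 to -0.01. Of 33 genes of endoplasmic reticulum and integrated stress, Trib3, a pseudokinase induced by amino acid shortage, was 2.25-fold higher, Vldlr was lower and the median was -0.09.

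The remaining lists held at most 1 DEG in a direction. Of 15 heat shock proteins the small chaperone gene Cryab was lower (log2 -0.61), but a further probe set of it differed by 0.27, and its call ended without animal 537 (log2 -0.45) or 404 (log2 -0.57). Of 28 genes of methionine, urea and amino acid metabolism, Tat, which breaks down tyrosine, was lower (log2 -0.63), and it fell under the fold threshold without animal 535 (log2 -0.49) or 402 (log2 -0.57). Of 20 pericentral genes the ammonium transporter gene Rhbg was higher (log2 0.69), with a call that ended on leaving out any of 7 mice (adjusted p 0.0508 to 0.157). Iron and haem handling (28 genes) shared its 1 higher DEG, Lcn2, with the acute phase proteins, and of 16 genes of sirtuins and NAD metabolism 0 passed. Of 16 hepatokine genes, Igfbp1 was higher and Inhbc, an activin subunit, 2.04-fold lower. Erythroid markers (5 genes) held 0 DEGs, adipocyte markers (5 genes) only Fabp4, and markers of the exocrine pancreas (10 genes, 7 of them dim) only Cela1, which was lower. Cela1 lost its call on leaving out any of 5 mice (adjusted p 0.0523 to 0.0877).

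**Figure D3:**
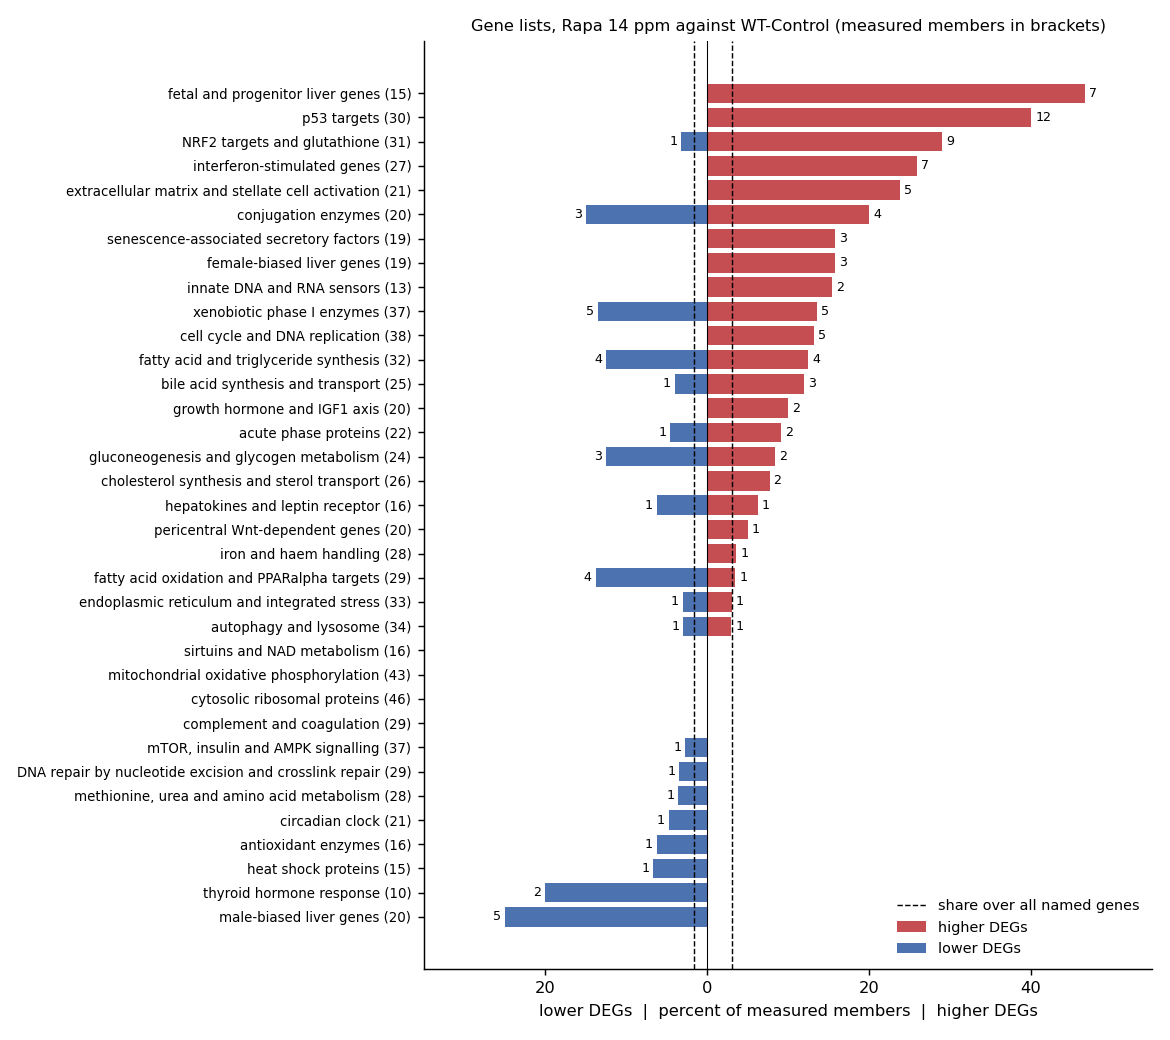
For each list of genes the bars give the share of measured members, in percent, that were higher DEGs (right) or lower DEGs (left) in Rapa 14 ppm vs WT-Control, each gene read from 1 probe set. Dashed lines mark the shares over all 17076 genes, dim ones included (3.0% higher and 1.62% lower), a low reference for lists with few dim members. Fetal liver genes and p53 targets have the longest bars to the right, 7 of 15 and 12 of 30 members.

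The DEGs differed in gene length. Length was the span of the gene from start to end, and it was at hand for 712 higher and 445 lower DEGs. The median was 20658 bp for the higher DEGs, 70289 bp for the lower DEGs and 25648 bp for all probe sets with a length. Genes of at least 100 kb made up 9.83% of the higher DEGs, 43.4% of the lower DEGs and 16.0% of all. Among genes with a mean above the mark for dim probe sets, the median log2 difference was -0.071 for 833 genes of 100 to 200 kb, -0.161 for 292 genes of 200 to 400 kb and -0.266 for 114 genes of at least 400 kb. In this last class 41 genes (36.0%) were lower DEGs and 4 higher. The 4 Rapa 14 ppm mice had medians of -0.278, -0.317, -0.350 and -0.276 over it.

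The 6 longest of the lower DEGs were picked for their length and direction and are given as a description. Fhit, a tumour suppressor gene that spans a fragile site on chromosome 14, was at 6.80, 6.87, 6.71 and 6.88 in Rapa 14 ppm and at 8.09, 8.04, 8.25, 8.17 and 8.11 in WT-Control. Both groups were tight and more than 1 log2 unit apart (log2 -1.31, SE 0.09, adjusted p = 1.6e-09). Pard3b, of the cell polarity complex, was at 4.45 to 5.01 against 5.72 to 6.11, and Tenm3, a cell adhesion receptor, at 6.07 to 6.41 against 7.02 to 7.60. Sox5, a transcription factor, overlapped between the groups and lost its call on leaving out any of 4 mice (adjusted p 0.0513 to 0.0609). Naaladl2 and Nckap5 were dim in Rapa 14 ppm and fell under the fold threshold without WT-Control animal 405 (log2 -0.54 and -0.57), Naaladl2 also without animal 535 (log2 -0.56).

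Per mouse, the slope of the log2 value on the log10 of gene length over 10299 genes gave 1 number, here relative to the WT-Control mean. It was -0.085, -0.054, -0.088 and -0.075 in Rapa 14 ppm and -0.051, 0.030, 0.018, -0.023 and 0.026 in WT-Control. The slopes of the mutants were all below those of the wild types, so that long genes were relatively lower in them, though animals 536 and 401 lay close together. The difference was -0.076 (exact two-sided permutation test, p = 0.0159, adjusted p = 0.0317 over 4 tests, smallest p allowed 0.00794). The adjusted p was 0.0714 without any 1 of the Rapa 14 ppm mice and 0.0571 without any 1 of the WT-Control mice, where fewer arrangements of mice remain. With no minimum of expression the difference was -0.031 and the call was lost (adjusted p = 0.0794).

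**Figure D4:**
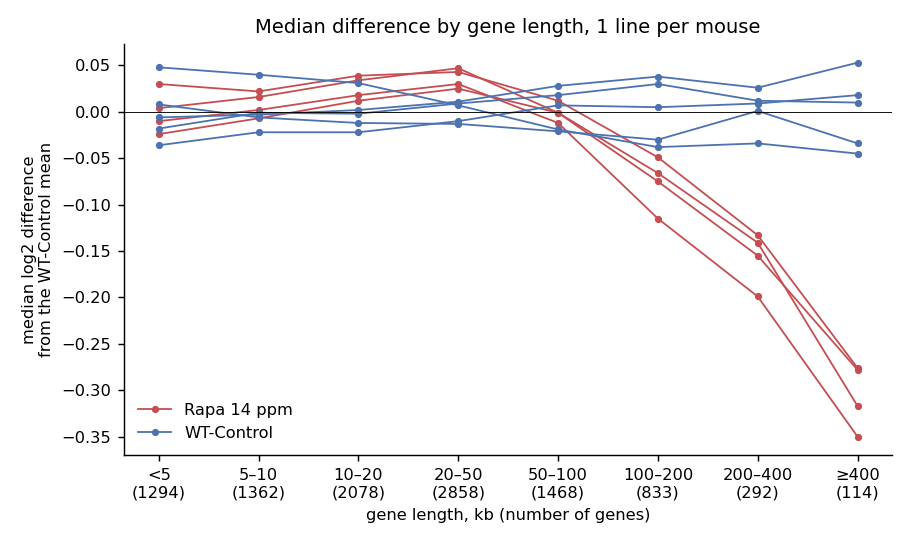
Each line is 1 mouse of Rapa 14 ppm (red) or WT-Control (blue), and each point its median log2 difference from the WT-Control mean over the genes of a length class in kb, with the number of genes in brackets. All 4 Rapa 14 ppm mice lie above all WT-Control mice in the class of 20 to 50 kb and below them in each class from 100 kb on, with the 4 Rapa 14 ppm mice between -0.350 and -0.276 in the class of at least 400 kb.

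Control mice, the same mutants without the drug, were set against the same WT-Control mice, so the values of both comparisons share those wild types and are given side by side only. In Control, 738 probe sets were higher (1.63%) and 401 lower (0.888%). The log2 difference of Afp from WT-Control was 4.25 in Control and 3.64 in Rapa 14 ppm, that of Cdkn1a 1.99 and 2.12, that of Usp18 2.17 and 2.33, and that of Fhit -1.30 and -1.31. For Nqo1 it was 1.27 and 2.00, for Cd36 1.56 and 2.21, for Dio1 -1.14 and -1.98, and for Serpina4-ps1 -2.26 and -4.25. None of these 8 genes passed the direct test of Rapa 14 ppm vs Control, in which the adjusted p was 0.0781 for Nqo1 and 0.174 for Serpina4-ps1. The list medians were 0.28 and 0.40 for p53 targets, 0.57 and 0.43 for interferon-stimulated genes, 0.24 and 0.27 for NRF2 targets and -0.09 and -0.24 for male-biased genes, again Control first.

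Whether rapamycin-fed and untreated mutants differed in a gene is answered by Rapa 14 ppm vs Control. It tests the signed difference between them, which is not a difference in distance from WT-Control where the mutants lie on either side of it. In that comparison 11 probe sets were higher (0.0244%) and 3 lower (0.00665%), and 4360 had an unadjusted p under 0.05. Of the 512 higher and 252 lower DEGs of Rapa 14 ppm vs WT-Control that were not DEGs in Control, 10 and 3 had an FDR under 0.05 here, so for the rest a difference between the mutants was not shown. The counts rest on single mice. Without Rapa 14 ppm animal 536 or 537, 0 probe sets passed in either direction, without animal 535 4 passed as higher and 1 as lower, and without animal 538 35 and 12. Without a Control animal the counts were 102 and 50 (animal 327), 6 and 2 (326), 4 and 1 (325), and 1 and 0 (321 or 323), and without a mouse of the other groups 5 to 15 and 1 to 7.

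Few named genes were DEGs against WT-Control and also had an FDR under 0.05 against Control. Most of them were named for their small adjusted p against Control. Gm15666, an RNA gene on chromosome 10, was at 6.43, 6.45, 6.56 and 5.46 in Rapa 14 ppm, at 4.34 to 4.93 in WT-Control and 1.63 log2 units lower in Control than in Rapa 14 ppm (adjusted p = 0.00528). Zfas1, a long RNA that hosts small nucleolar RNAs, was at 8.63, 8.75, 9.14 and 8.60 against 7.97 to 8.16 in WT-Control, and exceeded Control by 0.67 (adjusted p = 0.0218). Asb13, a subunit of ubiquitin ligases, was at 8.83 to 8.93 against 9.37 to 9.76 and differed from Control by -0.51 (adjusted p = 0.0218), though its call against WT-Control ended, by size, without animal 403 (log2 -0.55). Ppp1r3g, described above, exceeded Control by 3.16 (adjusted p = 0.0218), with Rapa 14 ppm at 1.74 and Control at -1.42 from WT-Control. The mitochondrial folate carrier gene Slc25a32 exceeded Control by 1.44 (adjusted p = 0.0394) and C9orf72 by 0.82 (adjusted p = 0.029). These 3 overlapped between Rapa 14 ppm and WT-Control, and C9orf72 lost its call against WT-Control on leaving out any of 4 mice (log2 0.46 to 0.58), Slc25a32 with only the 2 groups in the model (adjusted p = 0.0533). Pparg exceeded Control by 1.11 (adjusted p = 0.049) and Maff, a small partner of NRF2 chosen after its values were seen, by 1.42 (adjusted p = 0.0485). Asb13 was under the fold threshold against Control even with all mice. None of the other genes was a DEG against Control without animal 536 or without animal 537.

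In 2 named genes, both chosen after their values were seen, the rapamycin-fed mutants were not DEGs against WT-Control while Control was, and the mutants differed by the direct test. Ly96, which encodes the endotoxin co-receptor MD-2, was at 5.55, 5.12, 5.28 and 5.04 in Rapa 14 ppm and at 5.54, 5.10, 5.84, 5.47 and 5.25 in WT-Control. These groups overlapped (log2 -0.19, adjusted p = 0.589), while Control was 0.96 above WT-Control and Rapa 14 ppm -1.15 from Control (adjusted p = 0.0218). Aldh3a2, a dehydrogenase of fatty aldehydes, was at 10.33, 9.82, 9.86 and 9.77 in Rapa 14 ppm and at 9.51 to 10.21 in WT-Control (log2 0.10, adjusted p = 0.716). Control, at 8.93 to 9.34, lay below both groups, -0.67 from WT-Control (adjusted p = 0.00272), and Rapa 14 ppm exceeded it by 0.77 (adjusted p = 0.049). Neither gene was a DEG of Rapa 14 ppm vs Control without animal 536 or 537, nor was Ly96 without Control animal 321 or 323.

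A single measure of distance was the root mean square, over all 45141 probe sets, of a mouse's log2 difference from the WT-Control mean. It was 0.338, 0.326, 0.333 and 0.310 in the Rapa 14 ppm mice (0.327 ± 0.012, SD, n = 4) and 0.306 ± 0.017 (SD, n = 5) in Control. WT-Control mice, each set against the mean of its own group mates, lay at 0.201 to 0.228. All Rapa 14 ppm mice lay above the wild types, 2 of them also above the Control range of 0.285 to 0.327 and 2 within it. Rapa 14 ppm exceeded Control by 0.021 (exact two-sided permutation test, p = 0.0952, adjusted p = 0.127), so that a difference in distance between the mutants was not shown with 4 and 5 mice. The slope on gene length differed between the mutants by 0.007 (exact two-sided permutation test, p = 0.667, adjusted p = 0.667).

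**Figure D5:**
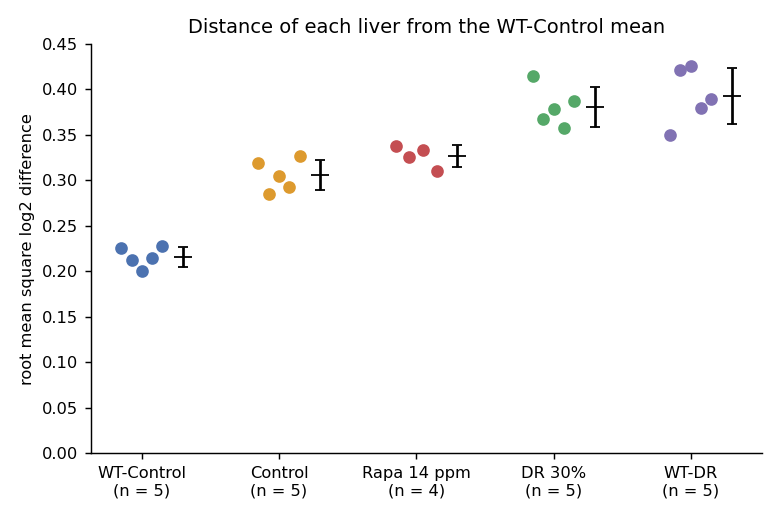
Each point is the root mean square log2 difference of 1 mouse from the WT-Control mean over 45141 probe sets, by group, with bars for the mean ± SD, and WT-Control mice are set against the mean of their group mates. Rapa 14 ppm mice lie at 0.310 to 0.338, Control mice at 0.285 to 0.327 and WT-Control mice at 0.201 to 0.228, and the mice on dietary restriction (DR 30% and WT-DR) are shown for scale.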

How the data were processed

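Liver RNA was measured by the authors on Affymetrix mouse arrays, 1 per mouse. The deposited values were log2 signals that the authors had normalized with RMA, which corrects background, brings arrays to 1 distribution and summarises probes, and which may narrow differences. Its version and the arrays normalized together are not given in the sources used here. The number of arrays limits the precision. No column of samples outside the series was used.

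Probe sets took the gene symbol of the platform annotation, updated through RefSeq, and gene length was the span on GRCm38.p6. The groups came from the labels. A single linear model of the 5 group means (24 mice, no covariates) was fitted to all 45141 probe sets with limma 3.58.1 (R 4.3.3). DEGs differed at least 1.5-fold at an FDR under 0.05 (Benjamini-Hochberg), as in the methods of the study. All adjusted p-values of genes came from limma. Measures that give each mouse 1 number were tested by permuting mice (exact, two-sided), with p adjusted over 4 tests. In lists each gene was read from its probe set of highest mean, and lists were described by counts and medians, with no test. The calling of DEGs was tested on simulated data.

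Named by rule were Ercc1; the 12 largest increases and 12 largest decreases among DEGs of 1 gene without overlap and above the median in the higher group; up to 4 DEGs per list with the smallest adjusted p (or 2 members of a list without DEGs); the 6 DEGs with the smallest adjusted p against Control; the 6 longest lower DEGs; and mTOR and its partners. Others are said to be chosen afterwards. The comparison, lists and rule were chosen with earlier results of these data known. Alternatives were a second table with 1 deposited probe set per gene, a model of the 2 groups alone, leaving out dim probe sets, quantile normalization anew, centring on medians, robust estimation with a variance trend, other fold thresholds, the mean of all probe sets of a gene, no minimum of expression, and leaving out each mouse.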

Additional observations from a re-analysis of the deposited data

Results flagged for a closer look

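In 12 of 268 sets of values of named genes, 1 mouse stood apart from the others of its group by Dixon's criterion, which chance meets in about 5 percent of such sets. Among the Rapa 14 ppm mice, animal 535 was high in Aldh3a2 (10.33, others 9.77 to 9.86), Mcm4 (6.66, others 6.39 to 6.44) and Sox5 (5.43, others 4.85 to 4.89) and low in Nckap5 (3.16, others 3.42 to 3.45). Animal 537 was high in Mcm6 (6.69, others 6.51 to 6.54), and animal 538 low in Gm15666 (5.46, others 6.43 to 6.56). Among the WT-Control mice, animal 403 was high in Pparg (6.02, others 4.63 to 4.91) and Cd36 (8.20, others 7.32 to 7.57) and low in Rps6 (13.09, others 13.22 to 13.25). Animal 402 was high in Cyp3a13 (10.32, others 10.05 to 10.07) and Nqo1 (5.91, others 5.53 to 5.64), and animal 405 in Naaladl2 (4.90, others 4.54 to 4.58).

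Rapa 14 ppm and Control differed in 10 named genes by the limma test of Rapa 14 ppm vs Control, which tests the signed difference between the mutants. Most were named because of this test: Ppp1r3g, Gm15666, Slc25a32, C9orf72, Zfas1 and Asb13 for their small adjusted p in it. Maff, Aldh3a2 and Ly96 were chosen after their values were seen, so the count of 10 is a description only. Over all probe sets, 19 of 45141 had an FDR under 0.05 in this test. Rapa 14 ppm was higher in Ppp1r3g (by 3.16), Gm15666 (1.63), Slc25a32 (1.44), Maff (1.42), Pparg (1.11), C9orf72 (0.82), Aldh3a2 (0.77) and Zfas1 (0.67), and lower in Asb13 (-0.51) and Ly96 (-1.15). The mutants lay on opposite sides of WT-Control in Ppp1r3g (1.74 and -1.42, Rapa 14 ppm first), Slc25a32 (1.08 and -0.36), C9orf72 (0.60 and -0.21), Aldh3a2 (0.10 and -0.67) and Ly96 (-0.19 and 0.96).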

How the results depend on the processing

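With 4 and 5 mice, small changes may go undetected, dim probe sets set no level, and drug and genotype stay joined. No paired analysis was possible because the groups share no replicate numbers. Rapa 14 ppm vs WT-Control gave 477 higher and 261 lower DEGs in the second table, which holds fewer probe sets, 2464 and 2062 with no fold threshold, 297 and 165 at 2-fold, and 917 to 1149 and 487 to 564 on leaving out a mouse. Control vs WT-Control gave 385 and 202, 1886 and 1418, 211 and 143, and 638 to 799 and 362 to 451. Rapa 14 ppm vs Control gave 3 higher with only the 2 groups in the model and 21 without dim probe sets. Its lower DEGs were 8 in the second table, 9 without dim probe sets, 5 with renewed quantile normalization, 5 with a trend and robust estimation, 6 with no fold threshold and 1 at 2-fold. Leaving out a mouse gave 0 to 102 higher and 0 to 50 lower. The slope on length was -0.031 in Rapa 14 ppm and -0.035 in Control (both adjusted p = 0.0794, exact permutation test) with no minimum of expression. Without a mouse it was -0.088 to -0.068 and -0.096 to -0.073, and between the mutants -0.003 to 0.014, -0.003 without Control animal 321 and -0.000 without animal 536. The difference in distance was 0.013 to 0.026. With the mean of all probe sets of a gene, list medians were 0.20 for extracellular matrix, 0.24 for fetal genes, 0.02 for antioxidant enzymes, -0.21 for thyroid response and -0.14 for sinusoidal endothelial markers. In the second table they were 0.27 for fetal genes, -0.19 for thyroid response and 0.03 for iron handling. In that table Acaa1a (0.17), Acot2 (0.05), Cryab (0.09) and Rps6 (-0.07) changed sign. Aldh3a2, not a DEG, did without animal 535 (-0.03). Rps6, not a DEG, also did with quantile normalization (-0.02), median centring (-0.00) and without animal 538 (-0.02) or 403 (-0.03). The cause of these changes was not tested. Of 120 DEGs named, counted by probe set, 83 had the same call under all alternatives and 37 lost it under at least 1. The median of all probe sets was -0.0126 after quantile normalization and -0.0286 after median centring.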
